A study of Mus musculus with 2 samples.

Results

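Granulosa cells that were passing through the cell cycle were picked out from single-cell RNA sequencing of whole ovaries that were taken from CD1 mice 2 days after birth. A cell was kept if it had at least 500 genes and at most 10% mitochondrial transcripts. It was taken as a granulosa cell if at least 3 of 7 granulosa genes (Foxl2, Fst, Wnt6, Kitl, Inha, Irx3 and Kctd14) were detected and together made up at least 0.1% of its transcripts, and if transcripts of interstitial, germ and mesothelial cells stayed below set limits. It was called cycling if at least 3 of 6 genes of DNA synthesis and mitosis were detected, namely Mki67, Top2a, Pclaf, Tk1, Rrm2 and Pbk. This rule gave 275 cycling cells among 2181 granulosa cells, in a series of 8941 cell barcodes of which 8202 passed the filter. They were compared with the 1621 granulosa cells in which none of the 6 genes was detected, called non-cycling here. The remaining 285 granulosa cells had 1 or 2 of the genes and entered no comparison. The rule read the same transcripts that are described here, so the 6 genes and the lists of S phase and G2/M genes are given as a description and without a test.

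The series has 2 libraries of whole ovaries, replicate 1 with 4094 barcodes and 54471790 unique molecular identifiers (UMIs, each standing for a captured transcript) and replicate 2 with 4847 barcodes and 59074480 UMIs. Both belong to a single group, female CD1 pups at postnatal day 2 for which the labels name no treatment and no genetic change, and each library pooled 6 ovaries from 3 pups. Replicate 1 gave 197 cycling and 1206 non-cycling granulosa cells, and replicate 2 gave 78 and 415. The libraries are the replicates (n = 2) and cells are not. Of the cell barcode sequences, 21 occurred in both libraries, 1 of them among the cycling granulosa cells.

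In the newborn mouse ovary, flattened pregranulosa cells surround each dormant oocyte of a primordial follicle. When a follicle is activated its granulosa cells become cuboidal, divide and start to make anti-Müllerian hormone and the subunits of inhibin and activin. A first wave of follicles in the ovarian medulla starts to grow directly after birth, while those in the cortex stay dormant. A dividing cell passes from G1 into S phase when D-type cyclins and their kinases inactivate the retinoblastoma protein and release the E2F factors. The genes of G2 and mitosis are switched on later, through promoters that carry CCAAT boxes and the cell cycle homology region.

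The cycling cells carried the granulosa identity that the rule asked for. Foxl2, the transcription factor that maintains ovarian fate, had 227 CPM in replicate 1 and 290 in replicate 2 (CPM are counts of UMIs scaled to 1000000 UMIs of a class of cells, adjusted between classes by the TMM method unless stated otherwise). Its level in non-cycling cells was 349 and 362 CPM. Inha, the inhibin alpha subunit, had 1306 and 1633 CPM in cycling against 721 and 604 in non-cycling cells. In interstitial cells, defined by their collagen and decorin transcripts, Inha stayed between 3.15 and 12.9 CPM and Foxl2 between 79.5 and 150 (unscaled CPM).

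Of the 6 genes that chose the cells, all 6 were detected in 64 cycling cells of replicate 1 and 21 of replicate 2, and just 3 in 36 and 14. Just outside the threshold lay 45 and 11 cells with 2 of the genes. Genes of S phase and G2/M made up a median of 0.512% and 0.425% of UMIs in cells with 3 genes, 0.39% and 0.413% in cells with 2 genes, and 0.0681% and 0.0711% in non-cycling cells. Cells at the boundary of the class were therefore closer to each other than to the non-cycling cells. The cycling cells held more RNA. Their median was 15493 UMIs in replicate 1 and 17282.5 in replicate 2, against 9168 and 8200 in non-cycling cells, which are ratios of 1.69 and 2.11. Among interstitial cells split by the same 6 genes the ratios were 1.55 and 1.72. The rule finds more genes in deeper cells, and its part in this difference was not tested.

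Cycling cells made up 12.2% of granulosa cells in replicate 1 (197 of 1616, exact 95% binomial interval 10.6% to 13.9%) and 13.8% in replicate 2 (78 of 565, 11.1% to 16.9%). The intervals overlap, and they cover counting error only, as do all intervals given here. With every cell thinned to 2000 UMIs, so that depth no longer differed between cells, the shares were 3.78% and 3.77%. Thinned interstitial cells had 11.9% and 9.76%, above the granulosa cells in both libraries. At full depth all granulosa cells had medians of 9880.5 and 9569 UMIs and all interstitial cells 6200.5 and 4858.5. Thinning thus kept a smaller part of the UMIs of granulosa cells, and its part in this difference was not tested. At full depth interstitial cells had 19.4% (16.8% to 22.2%) in replicate 1 and 15.4% (13.7% to 17.25%) in replicate 2. The full-depth intervals of the cell types overlapped in replicate 2. Cells below 2000 UMIs were left out of the thinned shares, 3 and 8 among granulosa cells.

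At full depth the cycling cells came mostly from the granulosa cells that had transcripts of Amh or Inhbb. Such transcripts were found in 182 of 197 cycling cells of replicate 1 and 64 of 78 of replicate 2. When thinned to 2000 UMIs, 26 of 61 and 11 of 21 cycling cells had them. Amh encodes anti-Müllerian hormone and Inhbb the beta B subunit shared by inhibin B and activin B. Both mark granulosa cells of growing follicles, whereas the collectin gene Colec11 and Pld5, of the phospholipase D family, mark a pregranulosa type. In GRCm38 with GENCODE vM21, Amh (ENSMUSG00000035262) spans chr10:80805243-80807648 on the plus strand, and Inhbb (ENSMUSG00000037035) chr1:119415465-119422248, Colec11 (ENSMUSG00000036655) chr12:28594173-28623377 and Pld5 (ENSMUSG00000055214) chr1:175962306-176275312 lie on the minus strand. After thinning to 2000 UMIs, 26 of 327 cells with a UMI of Amh or Inhbb and none of Colec11 or Pld5 were cycling in replicate 1, which is 7.95% (5.26% to 11.4%). In replicate 2 the share was 11 of 66, or 16.7% (8.63% to 27.9%). Among cells with a UMI of Colec11 or Pld5 and none of Amh or Inhbb, 2 of 285 (0.702%, 0.0851% to 2.51%) and 2 of 141 (1.42%, 0.172% to 5.03%) were cycling. The intervals of these classes did not overlap in either library. Cells with neither pair of markers lay between them, at 3.34% and 2.35%. The few cells with both pairs, 14 and 10, held no cycling cell, which allows shares of up to 23.2% and 30.9% by the exact interval. At 4000 UMIs the shares of the Amh or Inhbb class were 16.2% and 28.2%, and those of the Colec11 or Pld5 class 0.255% and 1.52%. The same order was thus found at both depths and in both libraries. A test across 2 libraries was not made.

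**Figure D1:**
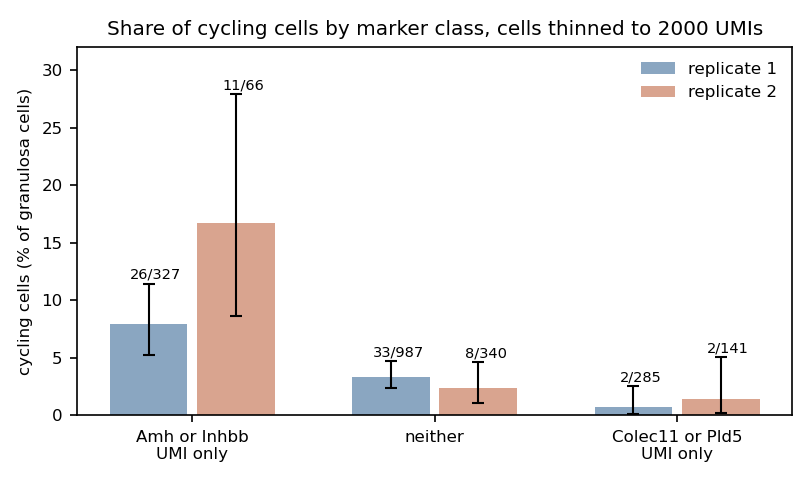
Share of cycling cells among granulosa cells (per cent, vertical axis) by the subtype markers detected in the cell (horizontal axis), with every cell thinned to 2000 UMIs. Bars are the libraries, lines the exact 95% binomial intervals, and the numbers over the bars the cycling cells and all cells of the class; the class with Amh or Inhbb reaches 7.95% and 16.7% and the class with Colec11 or Pld5 0.702% and 1.42%.

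Read from the side of the cycling cells, 92.4% in replicate 1 and 82.1% in replicate 2 held a UMI of Amh or Inhbb, against 41.8% and 23.9% of non-cycling granulosa cells. At equal depth the shares were 45.2% and 42.3% against 16.0% and 8.11%. Interstitial cells, which should lack these transcripts, had 0.118% and 0.305% at the same depth. They were chosen to have fewer than 3 of the 7 granulosa genes, so their shares may understate the background of free RNA. Colec11 or Pld5 was found at equal depth in 1.02% and 5.13% of cycling and in 22.3% and 31.2% of non-cycling granulosa cells, with 0.706% and 1.16% in interstitial cells. The share of cycling cells with these transcripts was thus near that of interstitial cells in replicate 1. At full depth 146 and 55 cycling cells held Amh or Inhbb alone, 36 and 9 held both pairs, 9 and 6 neither, and 6 and 8 Colec11 or Pld5 alone. In the cells of replicate 1 with Colec11 or Pld5 alone the highest number of such UMIs was 2, and in those of replicate 2 it was 17. Cells with a Serpina1 family or Calb1 UMI were cycling in 1.96% of cases against 4.75% of cells without one in replicate 1, and in 3.45% against 3.81% in replicate 2, with overlapping intervals in the latter. For Cxcl1 or Cxcl10, which mark granulosa cells with chemokine expression, the shares were 2.27% against 4.43% and 0 of 110 (up to 3.30%) against 4.70%, with overlapping intervals in both libraries. At 4000 UMIs the Cxcl shares were 5.54% against 7.88% and 1.56% against 8.89%. Without thinning they were 12.8% against 11.7% in replicate 1, the opposite order, and 7.03% against 17.1% in replicate 2. In replicate 2 the intervals did not overlap at 4000 UMIs or without thinning. At 4000 UMIs the Serpina1 or Calb1 shares were 4.72% against 9.05% in replicate 1 and 8.97% against 6.81% in replicate 2, opposite orders. Without thinning the Serpina1 or Calb1 shares were 12.3% against 11.99% in replicate 1, with overlapping intervals. In replicate 2 they were 23.85% (16.81% to 32.11%) against 10.8% (8.048% to 14.11%), and these intervals did not overlap. The order for Serpina1 or Calb1 thus depended on depth.

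UMIs were then summed over the cells of each class and library and compared by edgeR's quasi-likelihood test with the library as a block, since both classes of a library came from the same pups and droplet run. A gene was called if its Benjamini-Hochberg adjusted p was under 0.05 and its log2 fold change beyond 0.5 in either direction. Of 11597 genes tested, 1600 were called higher in cycling cells (13.8%) and 1633 lower (14.1%). The median log2 fold change over all of them was -0.02. Few replicates stood behind these calls, and with 1 residual degree of freedom per gene the small p-values below rest almost wholly on the spread that edgeR shares across genes (prior degrees of freedom 75.7). Without the block 741 (6.39%) and 426 (3.67%) were called, and with DESeq2 810 (6.98%) and 511 (4.41%). All 3 fits shared 650 higher genes (5.6% of those tested) and 309 lower genes (2.66%), together 8.27%. The counts below come from the fit with the block, followed by the number called in all 3 fits.

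The list of growing-follicle granulosa genes shifted towards the cycling cells in most of its members. Of 11 tested, 8 rose and 2 fell, beside 13.8% and 14.1% over all genes, with 4 and 1 in all 3 fits, beside 5.6% and 2.66%. The median log2 fold change was 1.48. Inhbb had 134 CPM in cycling and 32.4 in non-cycling cells of replicate 1, and 174 and 27.5 in replicate 2. Its log2 fold change was 2.35 (standard error, SE, 0.16, adjusted p = 8.77e-23), and it was called in every fit. Amh had 227 against 83.5 CPM in replicate 1 and 150 against 17.2 in replicate 2, a log2 fold change of 2.11 (SE 0.18, adjusted p = 3.26e-17). Its level among non-cycling cells differed between the libraries, and without the block the adjusted p was 0.103. Slc18a2, a vesicular monoamine transporter, rose by 1.62 on the log2 scale, and Gja1, the gap junction protein connexin 43, by 0.94. Nr5a2, the nuclear receptor LRH-1 that granulosa cells need for steroid synthesis and ovulation, had 115 and 141 CPM against 43.7 and 31.8, a log2 fold change of 1.76 called in all 3 fits. Among the steroid enzymes Hsd3b1 rose from 73.4 to 195 CPM in replicate 1 and from 26.2 to 181 CPM in replicate 2, and Hsd17b1, which converts estrone to estradiol, rose by 1.59 on the log2 scale. The members that fell were Gatm, the first enzyme of creatine synthesis, and Amhr2, the receptor of anti-Müllerian hormone. Gatm had 364 and 332 CPM in cycling against 968 and 1135 in non-cycling cells, a log2 fold change of -1.54 called in all 3 fits. The cycling cells thus held more transcripts of the hormone and fewer of its receptor, although Amhr2 missed the call without the block (log2 fold change -0.59, adjusted p = 0.0535).

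**Figure D2:**
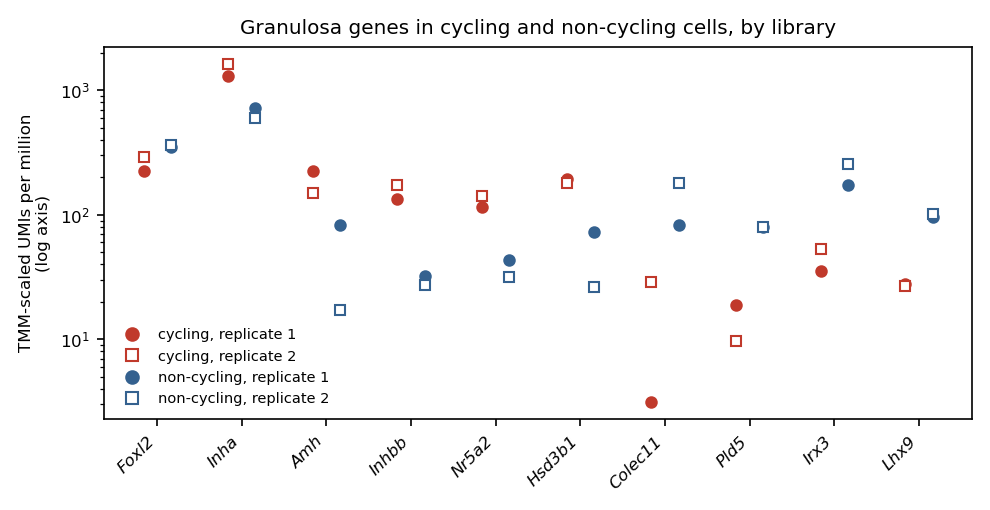
Levels of granulosa genes in the summed cells of each class (vertical axis, TMM-scaled CPM on a log axis) for each gene (horizontal axis), with filled circles for replicate 1 and open squares for replicate 2. Amh, Inhbb, Nr5a2 and Hsd3b1 lie higher in cycling cells of both libraries and Colec11, Pld5, Irx3 and Lhx9 lower, while the libraries differ most for Colec11, at 3.12 and 29.0 CPM in cycling cells.

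Pregranulosa genes fell almost as a whole list. Of the 8 members 7 fell and none rose, against 14.1% of all genes lower, with a median log2 fold change of -1.15 and 1 member in all 3 fits. Colec11 had 3.12 CPM in cycling against 82.6 in non-cycling cells of replicate 1, and 29.0 against 181 in replicate 2. Its log2 fold change was -3.36 (SE 0.22, adjusted p = 5.43e-23, and 0.0555 without the block). Pld5 had 19.0 against 80.1 and 9.65 against 80.0 CPM, a log2 fold change of -2.31, and was the member called in all 3 fits. Rspo1, a secreted amplifier of WNT signals, and Gng13, a G protein gamma subunit, fell by 1.30 and 1.40 on the log2 scale. The exception was Wnt4, with 60.1 and 64.8 CPM in cycling and 52.0 and 46.2 in non-cycling cells, which did not pass the threshold. Irx3, a homeobox gene of pregranulosa cells and part of the rule for granulosa cells, had 35.4 and 53.1 CPM in cycling against 173 and 255 in non-cycling cells. The Serpina1 and Calb1 list split, with 3 members higher and 5 lower of 11 tested (13.8% and 14.1% over all genes), and 3 and 2 in all 3 fits. Its steroid and lipid genes Hsd3b1, Ephx2 and Apoa1 rose. The retinaldehyde dehydrogenase Aldh1a1 fell from 626 to 330 CPM and from 638 to 272 CPM, and Serpina1b, a serine protease inhibitor whose close paralogues share reads, had 61.8 against 175 CPM and 6.89 against 24.3 CPM. Calb1, a calcium-binding protein, had 56.7 against 79.9 CPM in replicate 1 and 56.5 against 20.6 CPM in replicate 2, opposite directions, and was not called.

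Because cycling cells were enriched for the Amh or Inhbb class, the comparison was repeated within it, over cells with a UMI of Amh or Inhbb and none of Colec11 or Pld5 after thinning. This left 89 cycling and 180 non-cycling cells in replicate 1 and 33 and 26 in replicate 2, and it was chosen after the first results were seen. Of 8684 genes tested, 709 were higher (8.16%) and 524 lower (6.03%), and of the calls over all granulosa cells 662 and 430 were called again in the same direction. The differences in Amh and Inhbb, which chose the class, and in genes that go with them were smaller there. Amh was at 0.31 (not called) and Inhbb at 0.63 on the log2 scale, Hsd3b1 at 0.41 and Inhba at 0.03. Over the growing-follicle list the median was 0.24 there. The pregranulosa list, whose members Colec11 and Pld5 were also used for the selection, did not shrink. Its median was -1.31 there against -1.15 over all granulosa cells, and 5 of 7 tested were lower (6.03% over all genes there). Some other differences were nearly as large or larger there, while others shrank. Gatm was at -1.39, Lhx9 at -1.5, Aldh1a1 at -0.83, Serpina1b at -1.89 and Gng13 at -1.56, whereas Hes1 was at -0.66, Col4a1 at -0.56 and Cdh2 at 0.02. Cycling cells thus differed from non-cycling cells of the same marker class in more than cell cycle genes, with the comparison in replicate 2 resting on 26 non-cycling cells. The class was set by UMIs detected after thinning, which can miss transcripts, so cells of another subtype may remain in it. Depth also differed within the class, with medians of 14531 and 17731 UMIs in cycling against 9764.5 and 8204.5 in non-cycling cells. The part of subtype mixture and of depth in these differences was not tested.

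Cell cycle genes gave the largest differences, which the rule imposed. All 30 S phase genes and all 40 G2/M genes were higher in cycling cells of both libraries, with median log2 fold changes of 2.72 and 5.52. S phase genes summed to 2540 and 2215 CPM in cycling cells and to 581 and 542 in non-cycling cells (unscaled CPM), and G2/M genes to 5435 and 4060 against 178 and 212. S phase genes were thus also present in non-cycling cells. Dut, which keeps uracil out of DNA, had 281 and 323 CPM in cycling but also 94.9 and 93.5 in non-cycling cells, and Slbp, which binds the ends of histone messages, 190 and 150 against 97.7 and 93.9. Cks2, a partner of cyclin-dependent kinases, led the G2/M genes with 657 and 499 CPM against 54.5 and 56.5. Ube2c, the ubiquitin-conjugating enzyme of the anaphase-promoting complex, had 527 and 372 against 12.6 and 22.4, and Birc5 (survivin) 376 and 331 against 10.9 and 14.8. Chromatin and tubulin genes that dividing cells use go with the genes of the rule. The choice of cells thus favoured their rise, and their test is no independent support. All 16 on the list rose in all 3 fits, beside 13.8% of all genes with the block and 5.6% in all 3 fits. H2afz, the histone variant H2A.Z, had 3026 and 2866 CPM against 621 and 492, and Tubb5, a beta tubulin, 2785 and 2111 against 1147 and 1175. These genes accompany division in most cell types, and all 16 also rose in cycling interstitial cells (11.4% over all genes there).

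Within the cycling cells, S phase and G2/M transcripts varied from cell to cell. More UMIs of the G2/M genes than of the S phase genes were found in 120 of 197 cells in replicate 1 (60.9%, 53.7% to 67.8%) and in 44 of 78 in replicate 2 (56.4%, 44.7% to 67.6%). The boundary is not sharp, since 30 and 17 cells lay within 1.5 times of equal levels. Among cycling interstitial cells the shares were 47.0% and 62.0%, on either side of the granulosa shares. Amh and Inhbb were present in both kinds of cycling cell. Cells with more G2/M transcripts had 254 and 161 CPM of Amh in replicates 1 and 2 and the other cells 194 and 136, and for Inhbb the values were 147 and 174 against 119 and 172 (all unscaled). The growing-follicle list summed to 2404 and 2210 CPM against 2310 and 2192. No test was made between these cells, which the cell cycle genes themselves divide.

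**Figure D3:**
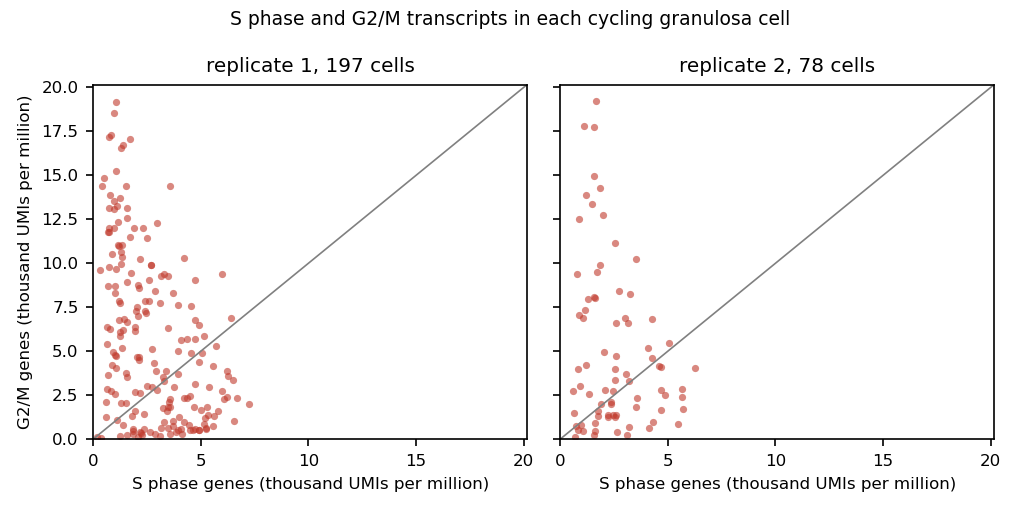
Summed UMIs of 30 S phase genes (horizontal axis) and 40 G2/M genes (vertical axis) as CPM of the cell, scaled down as the axis labels state,, for each cycling granulosa cell in replicate 1 (left) and replicate 2 (right). The line marks equal levels, with 120 of 197 and 44 of 78 cells above it.

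The promoters of these genes were searched for motifs known from cell cycle control, and 3 are shown with their matches, because S phase and G2/M promoters differed in which motifs they held. Sequences are from RefSeq (GRCm38.p6), from 250 bases before to 50 bases after the annotated start, on the strand of the gene. The motifs were searched on both strands. These were the cell cycle homology region (TTTGAA or TTCGAA, the latter its own reverse complement), the CCAAT box, and an E2F motif (TTTGGCGC, TTTCGCGC, TTTCCCGC or TTTGCCGC). The homology region was found in 76.5% of 34 G2/M promoters that matched a RefSeq entry, in 16.0% of 25 S phase promoters and in 19.4% of all 27025 promoters. CCAAT was found in 73.5%, 52.0% and 37.9%, and the E2F motif in 2.94%, 40.0% and 2.32%. A match is a description of letters and not of a bound site. The promoters of the most abundant G2/M genes, Cks2 (chr13:51644982-51645281, plus strand) with 4 CCAAT matches and Ube2c (chr2:164769679-164769978, plus strand) with 6 CCAAT matches and 1 homology region 29 bases before the start, are printed with all matches in capitals. The promoters of Birc5 and Dut, next in abundance, held none of these letters in the window. Mcm6, a subunit of the replicative helicase, is shown as the most abundant S phase gene with an E2F match (chr1:128359656-128359955, minus strand) and was chosen for that. It held 3 E2F and 2 CCAAT matches, with a pair of overlapping E2F matches that start 110 and 106 bases before the start.
Cks2: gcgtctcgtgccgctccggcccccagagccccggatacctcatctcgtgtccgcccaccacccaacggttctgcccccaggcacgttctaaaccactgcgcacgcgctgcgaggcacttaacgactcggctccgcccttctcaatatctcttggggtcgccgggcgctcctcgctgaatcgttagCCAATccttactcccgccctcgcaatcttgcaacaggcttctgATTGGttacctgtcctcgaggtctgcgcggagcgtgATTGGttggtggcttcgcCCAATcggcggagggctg
Ube2c: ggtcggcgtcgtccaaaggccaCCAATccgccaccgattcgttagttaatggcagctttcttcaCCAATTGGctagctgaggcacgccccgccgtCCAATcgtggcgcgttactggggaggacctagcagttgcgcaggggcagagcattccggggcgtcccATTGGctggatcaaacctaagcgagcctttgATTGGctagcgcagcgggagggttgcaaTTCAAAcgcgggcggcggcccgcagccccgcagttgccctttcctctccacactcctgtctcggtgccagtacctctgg
Mcm6: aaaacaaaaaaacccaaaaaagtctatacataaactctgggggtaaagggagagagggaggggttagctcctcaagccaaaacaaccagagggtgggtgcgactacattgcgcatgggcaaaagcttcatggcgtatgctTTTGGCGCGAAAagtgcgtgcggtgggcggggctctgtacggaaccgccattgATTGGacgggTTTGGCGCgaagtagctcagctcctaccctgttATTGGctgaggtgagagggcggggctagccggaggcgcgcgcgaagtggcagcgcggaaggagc
In cycling cells Mcm6 had 127 and 117 CPM, against 41.9 and 38.3 in non-cycling cells, a smaller contrast than that of Cks2 and Ube2c.

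Regulators of the G1 to S transition moved in both directions. Of 19 D-type cyclins, inhibitors of cyclin-dependent kinases and related genes tested, 5 rose and 7 fell, with 3 and 2 in all 3 fits, beside 13.8% higher and 14.1% lower over all genes. Ccnd2, the D-type cyclin that drives granulosa cell proliferation, was the most abundant of them in cycling cells. It had 798 and 1100 CPM in cycling and 932 and 962 in non-cycling cells, a log2 fold change of 0.03 (SE 0.11) that was not called. Its kinase Cdk4 rose by 0.61 on the log2 scale with 578 and 630 CPM against 392.2 and 425 (adjusted p = 0.06 without the block). Ccnd3 fell from 183 to 120 CPM and from 184 to 109 CPM. Cdkn1b, the inhibitor p27 that restrains granulosa cell division, had 50.4 and 62.7 CPM in cycling against 103 and 134 in non-cycling cells. Its log2 fold change was -1.01 (SE 0.15, adjusted p = 9.18e-08) and it was called in all 3 fits. A pair of inhibitors of the INK4 family went the other way. Cdkn2c (p18) had 28.9 and 30.3 CPM against 1.00 and 1.5, from 13 and 7 UMIs in non-cycling cells, and Cdkn2d (p19) 48.2 and 60.7 against 17.6 and 16.8, both called in all 3 fits. Both were higher in the cycling cells with more G2/M transcripts. Cdkn2c had 42.6 and 49.6 CPM in these cells and 8.31 and 8.60 in the other cycling cells, and Cdkn2d had 64.1 and 82.2 against 24.9 and 35.8 (unscaled). Cdkn1b had 51.0 and 62.6 against 52.1 and 61.6 CPM in the same division of cells. The antiproliferative genes Btg1 and Btg2 fell. Btg2 had 410 against 1241 CPM and 162 against 614 CPM, a log2 fold change of -1.70 (adjusted p = 0.0792 without the block).

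Notch target genes were lower in cycling cells. Notch receptors on pregranulosa cells respond to ligands on the oocyte and on other cells, and Hes1, Hey1 and Hey2 are transcriptional repressors induced by them. Of 9 genes of the pathway tested 6 fell and none rose, beside 14.1% of all genes lower, and 2 fell in all 3 fits, beside 2.66%. The median log2 fold change was -0.77. Hes1 had 557 against 1279 CPM in replicate 1 and 220 against 676 CPM in replicate 2. Its log2 fold change was -1.35 (SE 0.12, adjusted p = 1.53e-15). Replicate 1 was higher in both classes, and without the block the adjusted p was 0.129. Hey1 had 45.1 against 134 and 41.4 against 106 CPM, a log2 fold change of -1.45 called in all 3 fits. Nrarp, a feedback inhibitor of Notch, had 9.63 and 12.4 CPM against 36.6 and 66.8 and was also called in all 3. Of the receptors, Notch2 had 41.4 and 77.9 CPM against 77.5 and 121 (log2 fold change -0.73, adjusted p = 0.238 without the block). Heyl, at 77.9 and 84.8 against 87.1 and 94.1 CPM, did not pass the threshold. Within the Amh or Inhbb class 3 of 8 members tested fell, beside 6.03% of all genes there, Hes1 by 0.66, Hey1 by 1.12 and Nrarp by 1.43 on the log2 scale, and Notch2 was at 0.05. In interstitial cells none of the members was called, with Hes1 at -0.20 and Hey1 at 0.59. The difference between the cell types passed the interaction test for Hes1 (adjusted p = 4.34e-05), Hey1 (0.00352) and Notch2 (9.26e-04), and for none of them without the block (0.635, 0.107 and 0.415).

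**Figure D4:**
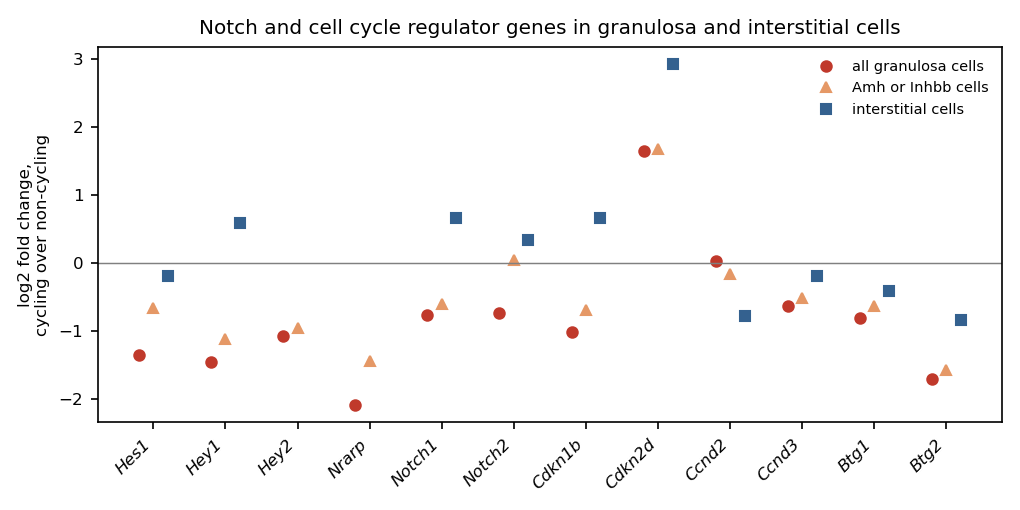
Log2 fold changes of cycling over non-cycling cells (vertical axis) for Notch pathway genes, D-type cyclins, kinase inhibitors and Btg genes (horizontal axis), fitted in all granulosa cells (circles), in granulosa cells with Amh or Inhbb (triangles) and in interstitial cells (squares); genes too low to be tested have no symbol. Hes1 and Hey1 lie at -1.35 and -1.45 in granulosa cells and at -0.20 and 0.59 in interstitial cells.

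Immediate-early genes, which dissociation of tissue as well as growth signals can induce, moved in the same direction as the Notch genes. Of 17 tested 13 fell and none rose, beside 14.1% of all genes lower, with 2 in all 3 fits, beside 2.66%, and a median of -0.79. Fos had 1574 against 2769 CPM in replicate 1 and 784 against 1637 in replicate 2, and Jun 1115 against 1790 and 676 against 1122. Ier2 fell by 1.2 on the log2 scale and was called in all 3 fits. Summed over the list the levels were 9222 and 4607 CPM in cycling and 14966 and 9656 in non-cycling cells (unscaled), so replicate 1 was higher than replicate 2 in both classes. The comparison was then limited to cells whose share of these transcripts was at or below the median of the granulosa cells of their library. This left 147 and 66 cycling and 548 and 184 non-cycling cells. Of the 17 genes 4 fell and 1 rose, but the cells were chosen by these same genes, so their smaller fall follows from the choice. Among the Notch genes 5 fell, while of 10455 genes tested 1109 were lower (10.6%) and 1161 higher (11.1%). The part of immediate-early genes in the other differences was not tested beyond this. Of 8 chemokine genes tested 7 fell, again beside 14.1%, and none in all 3 fits. Cxcl1 had 266 against 586 and 51.7 against 330 CPM, and Cxcl10 145 against 420 and 31.7 against 192 CPM. Within the Amh or Inhbb class 1 of 7 chemokine genes fell (6.03% over all genes there), and in low immediate-early cells 3 fell (10.6%). In interstitial cells 5 immediate-early genes fell and 1 rose, and 4 chemokine genes fell and none rose. Over all genes there 5.64% were lower and 11.4% higher.

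Of 16 genes of nucleotide and one-carbon metabolism 12 rose and none fell, with 7 in all 3 fits, a median of 0.87 and 13.8% higher as background. Nme1, a nucleoside diphosphate kinase, had 363 and 445 CPM against 223 and 223. Dctpp1, which removes modified cytidine triphosphates, had 210 and 280 against 82.4 and 93.9, a log2 fold change of 1.5 (SE 0.14). Phgdh and Psat1, enzymes of serine synthesis, rose by 1.02 and 2.15 on the log2 scale, and Mthfd2, a mitochondrial folate enzyme, rose from 10.1 to 43.4 and from 4.94 to 26.2 CPM. In interstitial cells 9 of the 16 rose, beside 11.4% of all genes there, among them Dctpp1, Mthfd2, Psat1 and Phgdh but not Nme1. Of 14 genes of growth and ribosome biogenesis 8 rose (13.8% over all genes), with 3 in all 3 fits (5.6%). Ncl (nucleolin) had 652 and 574 CPM against 411 and 357, Nop56 213 and 160 against 105 and 67.1, and Odc1, which starts polyamine synthesis, 152 and 148 against 75.2 and 67.1. Myc was not called, at 92.7 and 32.4 against 108 and 22.6 CPM. Of 14 cholesterol genes 7 rose, beside the same 13.8%, and none in all 3 fits, with Insig1, a regulator of sterol sensing, at 81.0 and 57.2 CPM against 52.3 and 19.1 (log2 fold change 0.99, adjusted p = 0.196 without the block). Within the Amh or Inhbb class 1 of 14 cholesterol genes rose and of the growth and ribosome genes 4 rose and 1 fell, beside 8.16% higher and 6.03% lower over all genes there. Of 15 glycolysis genes 3 were higher and 3 lower, near the 13.8% and 14.1% over all genes, with 1 and 2 in all 3 fits. Pgam1 and Pgk1 rose, whereas Aldoa fell from 777 to 437 and from 691 to 444 CPM and Ldhb, a lactate dehydrogenase subunit, fell from 469 to 242 and from 717 to 281 CPM. In interstitial cells 1 glycolysis gene rose and 2 fell. Aldoa was lower there too, at 148 and 136 CPM in cycling against 368 and 350 in non-cycling cells (unscaled).

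**Figure D5:**
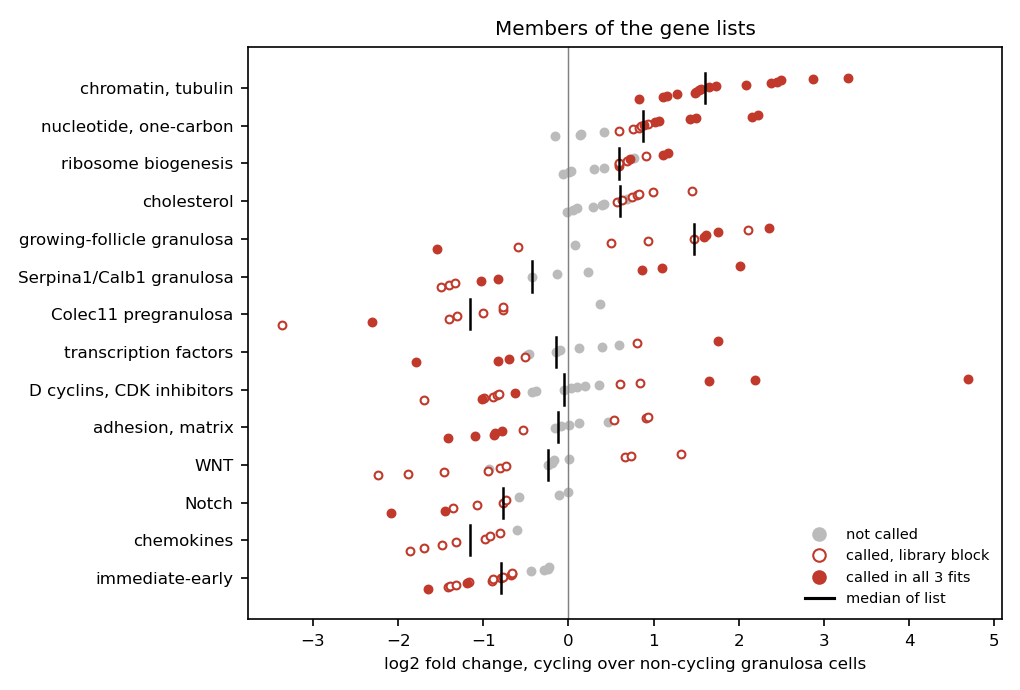
Log2 fold changes of cycling over non-cycling granulosa cells (horizontal axis) for the tested members of 14 gene lists (vertical axis). Grey points were not called, open points were called with the library block, filled points in all 3 fits, and bars mark the median of each list, from 1.61 for chromatin and tubulin genes to -1.15 for pregranulosa and chemokine genes.

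Of 14 genes of adhesion, junctions and matrix 3 rose and 6 fell, beside 13.8% and 14.1% over all genes, with none and 5 in all 3 fits, beside 5.6% and 2.66%. Col4a1 and Col4a2, the chains of the main collagen IV network, had 111 and 107 CPM against 279 and 327, and 82.5 and 97.2 CPM against 166 and 239. Their log2 fold changes were -1.41 and -1.10, and they were -0.56 and -0.75 within the Amh or Inhbb class. In interstitial cells they were 0.15 and 0.11, not called, and the difference between the cell types passed the interaction test with the block (adjusted p = 1.62e-06 and 9.25e-05) but not without it (0.0517 and 0.218). Nid1 (nidogen) and the laminin chain Lamc1 fell by 0.78 and 0.88 on the log2 scale, while another laminin chain, Lama1, rose with 92.9 and 88.9 CPM against 70.3 and 58.3. The connexins tested were Gja1, described above, and Gjc1, at 29.8 and 31.0 CPM against 14.2 and 21.3, both lost without the block (adjusted p = 0.27 and 0.0941). Cdh2, the N-cadherin that joins granulosa cells, had 55.0 and 39.3 CPM against 94.0 and 86.4, and in the Amh or Inhbb class it was at 0.02 and not called. Of 13 granulosa transcription factors 2 rose and 4 fell, the former near the 13.8% over all genes and the latter beside 14.1%, with 1 and 3 in all 3 fits. Sox4 had 607 and 444 CPM against 1008 and 902, Wt1 304 and 352 against 521 and 573, and Lhx9, a LIM homeobox gene of the early gonad, 27.8 and 26.9 against 95.5 and 102, each called in all 3 fits. Gata4 was level at 99.7 and 128 against 113 and 136 CPM. Of 15 WNT genes 3 rose and 6 fell, again beside 13.8% and 14.1%, none in all 3 fits. Within the Amh or Inhbb class 9 WNT genes were tested and none was called. Axin2, a direct target of beta-catenin, had 9.63 and 15.2 CPM against 25.6 and 47.5, a log2 fold change of -1.47 (adjusted p = 0.0581 without the block). Of 22 genes of TGF-beta, BMP and activin signalling 1 rose and 3 fell, none in all 3 fits, and of 16 genes of the KIT, PI3K and Hippo pathways 1 rose and 2 fell, likewise. Cyr61, a target of YAP that is also an immediate-early gene, fell from 1031 to 496 CPM and from 448 to 203 CPM. The counts for the TGF-beta and the KIT, PI3K and Hippo lists lie below the background of 27.9% called in either direction. The p53 and DNA damage list held 8 higher and 1 lower of 14 (13.8% and 14.1% over all genes), with 7 higher in all 3 fits (5.6%). Brca2, a gene of homologous repair, had 19.0 and 20 CPM against 5.93 and 5.59. The higher members of the list act in DNA repair and the replication checkpoint, so the choice of cells may have favoured their rise as well. Trp53, Bax and Mdm2 were not called. In interstitial cells 8 members of the list rose, beside 11.4% of all genes there.

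Transcripts of germ, immune, endothelial and perivascular cells were low, while mesothelial and erythroid markers reached higher levels in non-cycling cells. Some moved with the classes (sums over marker lists are in unscaled CPM). Of 7 germ cell markers tested none was called, and the 10 on the list summed to 54.3 and 84.7 CPM in cycling against 78.8 and 122 in non-cycling cells, Dppa3 being the most abundant. Interstitial markers summed to 179 and 212 against 217 and 312 CPM, led by Col3a1, with 2 of 8 higher and 1 lower (13.8% and 14.1% over all genes). Neither higher call held in all 3 fits, and Col1a1, one of them, turned to -0.38 on the log2 scale without cells marked by Scrublet. Ptn, the lower one, had 16.7 and 40.7 against 79.9 and 120 CPM. Of 6 mesothelial markers tested 3 fell, beside 14.1% over all genes and none in all 3 fits, while Krt19 was at 0.78 on the log2 scale and not called. The list summed to 334 and 582 against 599 and 1271 CPM, and to 46.1 and 62.7 CPM in non-cycling interstitial cells. Lgals7 was the most abundant of these markers in granulosa cells. Upk1b, a defining marker, was at 0 or 0.689 CPM in cycling and at 0.0771 or 0 in non-cycling granulosa cells. Their summed level moved in the same direction as the pregranulosa genes, and their part in that result was not tested. Immune markers summed to 3.47 and 13.0 against 9.50 and 45.9 CPM, and Ptprc was at 0 in every class. Endothelial markers summed to 17.3 and 24.6 against 19.7 and 40.1 CPM, and perivascular markers to 31.5 and 49.2 against 21.1 and 40.3 CPM. Among them Egfl7 and Cspg4 rose in all 3 fits, to 10.5 and 11.7 CPM and to 10.2 and 11.7 CPM, and Kdr fell, while the defining endothelial gene Pecam1 stood at 1.13 and 1.38 CPM in cycling cells. The pericyte gene Rgs5 was called higher, but had 5.38 against 0.462 CPM in replicate 1 and 2.07 against 3.22 in replicate 2, opposite directions. Erythroid markers were far lower in cycling cells, at 40.2 and 38.3 against 552 and 1462 CPM, and 4 of 4 tested were called lower. Single non-cycling cells held 4723 of the 7145 erythroid UMIs of replicate 1 and 6570 of the 6786 of replicate 2, and 2 and 1 non-cycling cells had at least 1% of such UMIs. Without these 3 cells, chosen as an alternative after seeing the data, Hbb-bs was at -0.08 and Hbb-bt at -0.57 on the log2 scale, neither called, Hba-a1 turned to 0.67 and Hba-a2 was too low to be tested, while 1616 and 1657 genes were called in all. With non-cycling cells matched on UMIs none of the list was lower and Hba-a1 was higher.

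Outside the lists, the 12 largest increases by a rule of size included Depdc1a, Ankle1, Cep55, Pimreg, E2f8, Sgo1, Spag5, Gas2l3, Neil3, Mxd3 and Ska1. Their levels in non-cycling cells rest on 11 UMIs or fewer per library, so levels are given here and no folds. Pimreg, a mitotic gene, had 64.9 and 65.5 CPM against 0.771 and 0.215. Sgo1, shugoshin, which protects cohesion of sister chromatids, had 34.9 and 31.7 against 0.231 and 0.645, and the repressor E2f8, itself an E2F target, 19.3 and 15.2 against 0.154 and 0.215. The 12 largest decreases were the haemoglobin genes Hba-a2, Hbb-bt, Hbb-bs and Hba-a1, and Dkk2, AC130815.2, Serpina3g, 3100003L05Rik, Plcl1, Colec11, Dusp15 and Ccl1. As given above, no haemoglobin gene was called lower once the few non-cycling cells rich in haemoglobin RNA were left out. Dkk2, a secreted modulator of WNT signals, had 0.283 and 0.689 CPM, 1 UMI in each library, against 5.09 and 10.5 in non-cycling cells. Apart from Colec11 and the haemoglobin genes, the highest level among them in non-cycling cells was 24.7 CPM, so these decreases concern transcripts of low abundance.

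The comparison with interstitial cells shows which changes went with the cycle in another cell type of the same libraries. Of 10647 genes tested in interstitial cells, 424 cycling against 1604 non-cycling, 1210 were higher (11.4%) and 601 lower (5.64%). Of the granulosa calls 777 higher and 240 lower genes were called the same way there. The difference between the cell types, tested as an interaction over 12113 genes, was called for 902 (7.45%), 459 with the higher log2 fold change in granulosa cells (3.79%) and 443 with the lower one (3.66%), which became 355 and 564 when scaled by library size only. This count rested on the block, since 10 genes were called without it. It also differed by method, with 233 called by DESeq2. Stmn1, a tubulin-binding protein, is an example at high abundance that was called both with and without the block. It rose by 1.54 on the log2 scale in granulosa cells and by 3.41 in interstitial cells. Cdkn1b fell by 1.01 in granulosa cells and was at 0.66 in interstitial cells (interaction adjusted p = 2.88e-04, and 0.149 without the block). Ccnd2, level in granulosa cells, was at -0.78 in interstitial cells (1.40e-04, and 0.221 without the block).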

How the data were processed

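Whole ovaries of CD1 pups were profiled by 10x Genomics 3' single-cell RNA sequencing in 2 libraries. The authors deposited matrices of counts, that is UMIs per gene and cell barcode, made with Cell Ranger 3.0.2 on GRCm38 according to the submitters' processing notes, and these counts entered the analysis as deposited. Each matrix held 31057 genes, of which 36 shared a symbol with another gene. The members and the gene lists were chosen with earlier results of these data known, so no list is independent support.

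Cells were kept and classed by the rules given in the text. Stromal transcripts (Col1a2 and Dcn) had to be under 0.1%, germ cell transcripts (Ddx4, Dazl and Ooep) under 0.05% and Upk3b at most 1 UMI in a granulosa cell, and interstitial cells had at least 0.5% of Col1a2 and Dcn and fewer than 3 of the 7 granulosa genes. Doublets were kept and weighed as an alternative. Scrublet at a score of 0.225 marked 96 (2.57%) and 93 (2.08%) of the cells, among them 3 and 3 cycling granulosa cells. UMIs were summed per class and library, 3460058 and 1463971 for cycling and 12945541 and 4640776 for non-cycling granulosa cells. Genes that passed filterByExpr were tested with edgeR 4.0.16 (R 4.3.3), TMM factors, the quasi-likelihood F test and the library as a block. Deviations of cycling and non-cycling sums from their class means correlated within libraries (r = 0.456 over 11597 genes), and both classes come from the same pups. The block takes up the difference between the pools of pups, so p-values measure how far the contrast varied between 2 libraries, with the spread shared across genes. DESeq2 1.42.0 and a fit without the block were the main alternatives. The cell types were compared by an interaction term. On simulated counts for the granulosa comparison 65% of genes changed 2-fold and 93% of those changed 4-fold were recovered, against 41% and 70% for the interaction and 50% and 94% for the comparison within Amh or Inhbb cells. Intervals on shares are exact binomial intervals (95%, scipy 1.17.1).

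The text names the most abundant called members of each list, the 12 largest changes of each sign outside the cycle genes and the 8 largest interactions of each sign. Other genes, such as Cdkn1b, Cdkn2c, Cdkn2d, Ccnd2, Hey2, Wnt4, Heyl, Mthfd2, Psat1, Odc1, Myc, Cdh2, Lama1, Gjc1, Gata4, Egfl7, Cspg4, Rgs5, Ptn, Esr2, Inhba and Fshr, were chosen after their values were seen. A few genes are not reported here.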

Additional observations from a re-analysis of the deposited data

Results flagged for a closer look

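The effect of cycling differed between granulosa and interstitial cells by the interaction test of edgeR, with the library as a block, and the 8 genes with the largest difference of each sign are given here. A value is the log2 fold change in granulosa cells minus that in interstitial cells. Of the 16 genes, Col27a1, Ptgis and Robo1 were also called without the block, and Col27a1, Ptgis and Ptgds by DESeq2.

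Col27a1, a fibrillar collagen, had a difference of 2.47, with 83.6 and 103 CPM in cycling against 35.5 and 30.7 in non-cycling granulosa cells, and 24.5 and 25.7 against 52.1 and 50.1 in interstitial cells. It thus rose in one cell type and was lower in the other, in both libraries. Ptgis, prostacyclin synthase, had a difference of 2.68, with 62.9 and 60.0 CPM against 17.1 and 9.89 in granulosa cells and 116 and 118 against 184 and 164 in interstitial cells. Robo1, a receptor for SLIT proteins, had a difference of 2.43, with 29.2 and 28.3 CPM against 9.79 and 6.45 in granulosa cells and 15.3 and 15 against 22.5 and 25.6 in interstitial cells.

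Ptgds, prostaglandin D synthase, had a difference of 4.75. It had 119 and 169 CPM against 69.3 and 49.9 in granulosa cells, and no more than 3.34 CPM in any class of interstitial cells, so the size of the difference rests on few interstitial UMIs. The other positive differences were 2.73 for Jsrp1, 2.58 for Dmxl2, 2.49 for Paqr6 and 2.24 for Kif26a. The negative ones were -7.78 for 3100003L05Rik, -6.46 for Art3, -6.15 for Defb36, -5.61 for 1700003F12Rik, -3.66 for Sptssb, -3.65 for Ly6d, -3.40 for Pde8b and -3.12 for Car8. These 8 genes had at most 4.29 CPM in any class of interstitial cells and none was called without the block or by DESeq2, so no size can be read from their values.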

How the results depend on the processing

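Depth sets which cells can be called cycling, and 2 libraries limit the tests. The 1600 higher and 1633 lower genes became 810 and 511 with DESeq2, 741 and 426 with no replicate block, 668 and 545 with cells thinned to 2000 UMIs, and 709 and 524 within Amh or Inhbb cells, where fewer cells and genes entered. With each library alone 1298 to 1464 of the higher and 1499 to 1515 of the lower genes kept a log2 change beyond 0.5. The interaction calls of 459 and 443 genes became 89 and 144 with DESeq2, 5 and 5 without the block and 205 and 115 after thinning, and all 459 and 443 kept their sign in either library. The mean share of cycling cells, 13.0%, was 15.4% with at least 2 of the 6 genes, 10.7% with at least 4, 3.78% after thinning to 2000 UMIs and 7.08% at 4000. In single libraries it was 12.2% to 13.8%. The mean share in the Amh or Inhbb class, 12.3%, was 22.2% at 4000 UMIs and 40.1% without thinning (7.95% to 16.7% by library), and that in the Colec11 or Pld5 class, 1.06%, was 2.34% without thinning (0.702% to 1.42% by library). The first of these classes had the higher share in each.

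Of the 143 results for single genes, 65 lost their call without the block and 34 with DESeq2, none with a change of sign. In the library left without replicate 1 and in that without replicate 2, the log2 change of 51 and 36 lay further from the fitted one than the SD of the granulosa change over both libraries. The sign changed for Hbb-bs (0.39 with non-cycling cells matched on UMIs and 0.0915 within Amh or Inhbb cells) and for Hba-a1 (0.93, 1.86, and 0.67 without cells rich in haemoglobin RNA). Within Amh or Inhbb cells it also changed for Notch2 (0.0463), Tcf7 (-0.00529) and Ctgf (0.0709), after thinning for Foxo1 (-0.10), without cells marked by Scrublet for Col1a1 (-0.38), and for Rgs5 without replicate 1 (-0.51, against 2.997 without replicate 2). For Hba-a1 leaving out 3 cells was enough, and for the others the cause was not tested. The alternatives within Amh or Inhbb cells, without cells rich in haemoglobin RNA and with low immediate-early RNA were chosen after seeing the data.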

Other observations

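Genes of hormone response and of activin were also measured in the cycling granulosa cells. Fshr, the receptor of follicle-stimulating hormone, was close to the limit of detection, with 3.12 and 0.689 CPM in cycling and 0.694 and 0.215 in non-cycling cells, and was too low to be tested. Esr2, the estrogen receptor of granulosa cells, rose from 42.3 to 55.8 CPM in replicate 1 and from 23.4 to 60.0 CPM in replicate 2 (log2 fold change 0.80, adjusted p = 7.07e-05 by edgeR with the block and 0.111 without it). Inhba, the beta A subunit of inhibin and activin, had 49.0 and 60.0 CPM in cycling against 29.8 and 7.31 in non-cycling cells, a log2 fold change of 1.48 (adjusted p = 0.128 without the block). Within Amh or Inhbb cells neither gene was called, with Esr2 at 0.23 and Inhba at 0.03.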
